A study of Capra hircus with 6 samples.

Results

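The enzymes that build heparan sulfate chains were followed in RNA-seq libraries of goat (Capra hircus) intramuscular preadipocytes with LIPG silenced. The set was chosen by name and held 10 genes: XYLT2, EXTL2, EXTL3, EXT1, EXT2, NDST1, NDST2, GLCE, HS2ST1 and HS6ST1. Of these, 8 were found under a gene name among the 27271 genes of the deposited tables. NDST2 and HS2ST1 could not be matched to a gene name and were not analysed here.

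Primary preadipocytes had been taken from the longissimus dorsi muscle of 3-day-old Jianzhou goats. The NC groups (genotype label WT, n = 3) received a control siRNA, and the Si-LIPG groups (genotype label LIPG Knock down, n = 3) received an siRNA that targets LIPG. All 6 samples carried the treatment label Adipose differentiation, and the medium of both groups held oleic acid. An siRNA lowers a transcript for a time and leaves the genome as it is, so the groups are defined by the siRNA transfected and not by a clone or a strain. The study's methods speak of 3 biological replicates, but the labels tie no library to an animal or culture, so that the p-values measure only the spread between these libraries.

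Heparan sulfate is a long sulfated sugar chain carried by core proteins of the cell surface and the matrix. Its synthesis in the Golgi begins when a xylosyltransferase (XYLT1 or XYLT2) places xylose on a serine of the core protein. A short linker follows, EXTL3 adds the residue that commits the linker to heparan sulfate, and the EXT1 and EXT2 proteins together lengthen the chain. NDST enzymes then replace acetyl groups by sulfate, GLCE turns glucuronic into iduronic acid, and HS2ST1 and the HS6ST enzymes add sulfate to the sugar rings. Lipases such as LIPG, endothelial lipase, bind these sulfated chains at the cell surface.

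The libraries held few reads on genes. Between 524776 and 703680 reads were counted on genes in the NC libraries and between 864882 and 1051230 in the Si-LIPG libraries, which was 1.31% ± 0.279 (SD, n = 3) and 2.44% ± 0.566 (SD, n = 3) of all reads. That share was higher in all Si-LIPG libraries (exact permutation test over libraries, two-sided, p = 0.1, which is the minimum for 3 against 3). A count of 3, the limit that a count of 0 allows, corresponded to a CPM (counts scaled to 1000000 reads on genes) of 2.85 to 5.72 and covers counting error only. The silenced gene LIPG had 0, 2 and 0 counts in NC libraries 1, 2 and 3 and 0, 2 and 2 counts in Si-LIPG libraries 1, 2 and 3, so that its silencing could not be checked at this depth. The library kit marks the strand of each transcript, but the strand setting of the counting is not given in the sources used here. ND6 is the mitochondrial protein gene that lies on the other strand from the rest. Its reads per kilobase were compared with the median of the other 12 such genes. They were 54.25 to 99.3 times that median in NC and 22.6 to 49.8 times in Si-LIPG libraries. Every Si-LIPG library lay below every NC library in this ratio, so that it differed with the groups compared. The strand of the enzymes' reads was not tested. EXTL2, NDST1 and HS6ST1 have another annotated gene within 1 kb in RefSeq's ARS1.2 goat assembly, so that some of their reads may belong to a neighbour, while EXT1, EXT2, EXTL3, GLCE and XYLT2 have none. Each value below rests on the reads counted on a gene.

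The libraries held reads of fibroblast and preadipocyte markers, and also of myogenic and smooth muscle ones. Of 12 fibroblast and preadipocyte markers, 10 were found, without COL3A1 and CD34, and DLK1 was at 0 in all 6 libraries. Their summed level was 35700 to 73370 CPM in the NC libraries and 95530 to 101600 CPM in the Si-LIPG libraries. FN1, COL1A1 and COL1A2 led this sum. In NC library 1, COL1A1 had 2841 counts and COL1A2 had 2716, where PDGFRA had 24 and LUM had 6. The sum therefore does not identify the labelled cell type on its own. The summed adipocyte markers stood at 9.53 to 38.2 CPM in NC and 20.9 to 42.8 CPM in Si-LIPG libraries, with LPL at 0 in all 6. The 7 myogenic markers summed to 287.7 to 393.7 CPM in NC and 487.5 to 547.9 CPM in Si-LIPG libraries. The 5 smooth muscle and pericyte markers summed to 4825 to 7479 CPM in NC and 8053 to 8446 CPM in Si-LIPG libraries, although MYH11 among them was lower with TMM scaling (log2 fold change -1.44, edgeR, adjusted p = 0.0485). These sums are per read on genes. After TMM scaling, described below, the median log2 fold change was 0.30 for the 9 tested fibroblast and preadipocyte markers, 0.21 for the 4 myogenic and 0.10 for the 3 smooth muscle ones, beside 0.16 for all tested genes. Endothelial markers stayed at or below 7.13 CPM with CDH5, KDR and TEK at 0, and immune markers at or below 13.3 CPM with PTPRC, CD3E, C1QA and C1QB at 0. In bulk libraries, fewer cells of a type and less RNA per cell cannot be told apart. The part of these marker levels in the enzyme results below was not tested.

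XYLT2 (ENSCHIG00000018461) starts the linker. Its deposited FPKM, reads per kilobase of gene and per 1000000 reads on genes, was 8.35, 9.71 and 12.5 in NC and 4.22, 17.1 and 13.2 in Si-LIPG libraries, always given in the order 1, 2, 3. The Si-LIPG libraries lay on both sides of the NC range. The other gene of this step, XYLT1, had 14, 16 and 12 counts in NC and 12, 9 and 20 counts in Si-LIPG libraries, where XYLT2 had 12, 16 and 24 and 10, 46 and 38.

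EXTL3 (ENSCHIG00000027229) adds the first N-acetylglucosamine of the chain. Its FPKM was 2.09, 10.5 and 5.85 in NC and 19.0, 16.5 and 22.2 in Si-LIPG libraries (6.14 ± 4.21 and 19.2 ± 2.86, SD, n = 3). Every Si-LIPG library lay above every NC library. EXTL2 (ENSCHIG00000016039), a related transferase that can act on the linker and limit chain growth, had 13, 0 and 0 counts in NC and 1, 10 and 8 counts in Si-LIPG libraries. All NC reads on EXTL2 came from library 1, and the groups overlapped. EXTL1, the third gene of this family, had 0 counts in all 6 libraries.

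EXT1 (ENSCHIG00000009348) carries polymerase activity in the complex with EXT2. It had 4, 4 and 6 counts in NC libraries 1, 2 and 3 and 33, 74 and 74 counts in Si-LIPG libraries 1, 2 and 3. Its FPKM was 2.22, 1.94 and 2.49 in NC and 11.1, 22.0 and 20.5 in Si-LIPG libraries (2.22 ± 0.274 and 17.9 ± 5.89, SD, n = 3). The lowest Si-LIPG library stood well above all NC libraries, whose counts were near the limit of 3 that a count of 0 allows. EXT2 (ENSCHIG00000026007), the partner with which EXT1 forms the Golgi polymerase, had 12, 36 and 48 counts in NC and 80, 98 and 123 counts in Si-LIPG libraries. Its FPKM was 8.82, 23.1 and 26.3 in NC and 35.7, 38.5 and 45.1 in Si-LIPG libraries (19.4 ± 9.30 and 39.8 ± 4.86, SD, n = 3). NC library 1 held the lowest EXT2 value, and the groups did not overlap.

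NDST1 (ENSCHIG00000017289) removes acetyl groups from the growing chain and puts sulfate in their place. Its FPKM was 5.48, 16.2 and 8.17 in NC and 20.9, 17.0 and 16.4 in Si-LIPG libraries (9.96 ± 5.60 and 18.1 ± 2.47, SD, n = 3). The highest NC library and the lowest Si-LIPG library were almost equal. NDST4 had 0 counts in every library and NDST3 had 1 count, in Si-LIPG library 1. Of the matched NDST genes, NDST1 alone had enough reads for a comparison.

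GLCE (ENSCHIG00000014850), the epimerase that makes the chain flexible, had 2, 0 and 0 counts in NC and 8, 37 and 34 counts in Si-LIPG libraries, with FPKM of 0.595, 0 and 0 and of 1.44, 5.88 and 5.05. Every Si-LIPG library was above every NC library, but the NC counts were within the limit that a count of 0 allows. Per read on genes, the summed GLCE counts (2 in NC, 79 in Si-LIPG) gave a ratio of 24.9 with an exact 95% interval of 6.68 to 209.6, which covers counting error only and not the spread between libraries. HS6ST1 (ENSCHIG00000016130), a 6-O-sulfotransferase, had 0, 5 and 0 counts in NC and 2, 6 and 10 counts in Si-LIPG libraries, which overlapped. HS6ST2 and HS6ST3 could not be matched to a gene name. The 3-O-sulfotransferases HS3ST1, HS3ST3A1, HS3ST3B1, HS3ST5 and HS3ST6 had 0 counts in all 6 libraries, and HS3ST2 had 2 counts, in NC library 1.

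**Figure D1:**
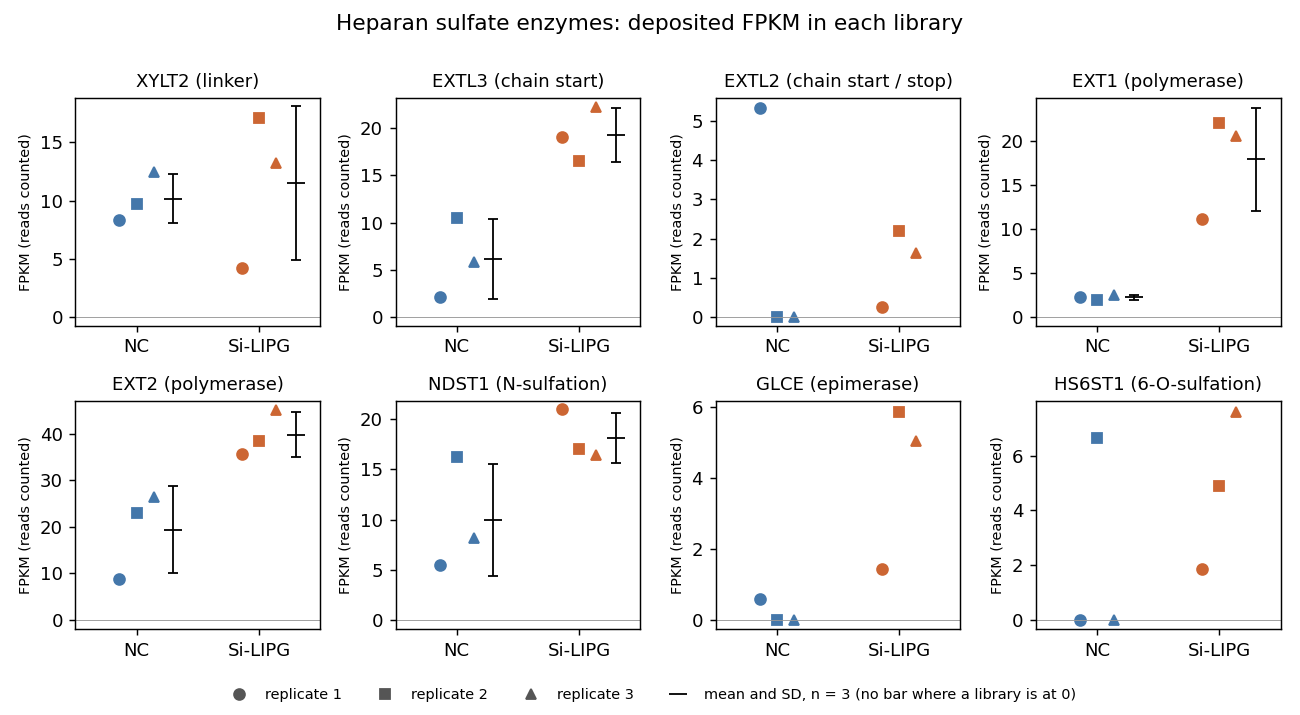
Deposited FPKM (vertical axis, linear, a scale of its own in each panel) of the 8 enzymes in the 3 NC and 3 Si-LIPG libraries, with points for libraries and bars for the mean and SD (n = 3), left out where a library was at 0. EXT1 lies between 1.94 and 2.49 in NC and between 11.1 and 22.0 in Si-LIPG libraries, while XYLT2, EXTL2 and HS6ST1 overlap between the groups.

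On the FPKM scale, 5 of the 8 enzymes (EXTL3, EXT1, EXT2, NDST1 and GLCE) were higher in every Si-LIPG library than in every NC library, and none was lower in every one. Among the 14848 genes with a count in any library, 19.5% were likewise higher without overlap. FPKM divides by the reads counted on genes with no further scaling, and on that scaling the median log2 fold change of all tested genes was 0.74. After TMM scaling, which sets libraries to a common level over most genes, the median was 0.16, and all tests below use it unless another scaling is named. The median was 1.58 when libraries were scaled to all their reads. The FPKM difference of an enzyme therefore contains a shift that most genes share.

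Within the set, EXT2 had the highest mean FPKM in both groups and stood apart from the next enzyme in the Si-LIPG libraries, where its lowest value of 35.7 exceeded the highest EXTL3 value of 22.2. The order in the NC libraries was EXT2, XYLT2, NDST1, EXTL3, EXT1, HS6ST1, EXTL2 and GLCE, and all neighbours in it overlapped. In the Si-LIPG libraries it was EXT2, EXTL3, NDST1, EXT1, XYLT2, HS6ST1, GLCE and EXTL2, and all neighbours after EXT2 overlapped. EXT1 made up 6.76%, 2.85% and 4.50% of the summed FPKM of the 8 enzymes in NC and 11.8%, 17.7% and 15.6% in Si-LIPG libraries. The share of EXT1 was higher in every Si-LIPG library than in every NC library. The summed FPKM itself was 32.9 to 68.1 in NC and 94.6 to 131.8 in Si-LIPG libraries.

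The comparison of Si-LIPG with NC asked which of these enzymes changed in number of reads when LIPG was silenced. EXT1 was called higher with an adjusted p under 0.05. EXTL3 met only the looser criterion of the study, an unadjusted p under 0.05 with a fold change over 1.5. EXT2, NDST1 and XYLT2 met neither threshold, and no enzyme was called lower. The other 3 found enzymes, EXTL2, GLCE and HS6ST1, had too few reads for edgeR's filter, which kept 6574 genes and 5 of the enzymes. At the criterion, 2 of the 5 tested enzymes were called, both higher, beside 7.83% of all tested genes called higher and 20.7% called in either direction. At an adjusted p under 0.05, 1 of the 5 was called, beside 6.51% of all tested genes. With TMM-scaled CPM, 3 of the 5 were higher without overlap, beside 15.2% of all tested genes. Both called enzymes passed the filter on low counts only through Si-LIPG libraries, where they are high, since EXT1 had under 10 counts in all 3 NC libraries and EXTL3 in NC library 1. The calls of EXT1 and EXTL3, and the counts of calls among the 5, are therefore a description and no evidence about the set. With at least 10 counts asked of every library, 3 enzymes were tested, without EXT1 and EXTL3, and 0 were called. Of all 2757 genes tested with that filter, 1066 met the criterion and 714 had an adjusted p under 0.05.

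EXT1 stood at 13.0, 7.21 and 9.46 TMM-scaled CPM in NC and at 37.2, 60.3 and 54.1 in Si-LIPG libraries (9.88 ± 2.91 and 50.5 ± 11.9, SD, n = 3). The groups were far apart relative to the spread within each. The log2 fold change of EXT1 was 2.39 (SE 0.56, edgeR's quasi-likelihood test, adjusted p = 0.0395), above 98.7% of the tested genes and at rank 100 of 6574 by p. It was 2.23 above the median of all tested genes and 2.09 above the median of the tested fibroblast and preadipocyte markers, which was 0.30. The log2 fold change of EXT1 lay between 2.21 and 2.56 over the 6 fits that each leave out a library, but edgeR's adjusted p was then 0.0771 without NC library 1, 0.0629 without NC library 2, 0.243 without Si-LIPG library 2 and 0.253 without Si-LIPG library 3. With the percentage of reads that fell on genes as a covariate, which itself differed between the groups, it was 1.93 (edgeR, adjusted p = 1.00).

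EXTL3 stood at 13.0, 41.4 and 23.6 TMM-scaled CPM in NC and at 67.7, 48.1 and 62.1 in Si-LIPG libraries (26.0 ± 14.4 and 59.3 ± 10.1, SD, n = 3). The groups did not overlap, although NC library 2 came close to Si-LIPG library 2. The log2 fold change of EXTL3 was 1.13 (SE 0.48, edgeR's quasi-likelihood test, adjusted p = 0.183), which met the criterion and missed the adjusted threshold. EXTL3 missed the criterion without NC library 1 (log2 fold change 0.85), NC library 3 (1.03), Si-LIPG library 1 (0.97) or Si-LIPG library 3 (1.11). With the percentage of reads on genes as a covariate, it missed the criterion at 1.11 (edgeR, adjusted p = 1.00).

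EXT2 stood at 38.9, 64.8 and 75.7 TMM-scaled CPM in NC and at 90.3, 79.9 and 89.8 in Si-LIPG libraries (59.8 ± 18.9 and 86.7 ± 5.90, SD, n = 3). The groups did not overlap, but NC libraries 2 and 3 lay near the Si-LIPG range. Its log2 fold change was 0.51 (SE 0.37, edgeR's quasi-likelihood test, adjusted p = 0.489) and missed both thresholds. On the scaling of FPKM, by reads on genes alone, EXT2 met the criterion with a log2 fold change of 1.04, of which 0.74 was the median of all tested genes.

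NDST1 stood at 32.4, 61.2 and 31.5 TMM-scaled CPM in NC and at 71.1, 47.3 and 43.8 in Si-LIPG libraries. NC library 2 lay among the Si-LIPG libraries. The log2 fold change of NDST1 was 0.35 (SE 0.44, edgeR's quasi-likelihood test, adjusted p = 0.718). XYLT2 stood at 38.9, 28.8 and 37.8 in NC and at 11.3, 37.5 and 27.8 in Si-LIPG libraries, again with overlap. Its log2 fold change was -0.44 (SE 0.55, edgeR's quasi-likelihood test, adjusted p = 0.717), and the sign turned with other scalings, to 0.20 with reads on genes alone and 1.13 with all reads in the files. Relative to the median of all tested genes, NDST1 differed by 0.19 and XYLT2 by -0.60.

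**Figure D2:**
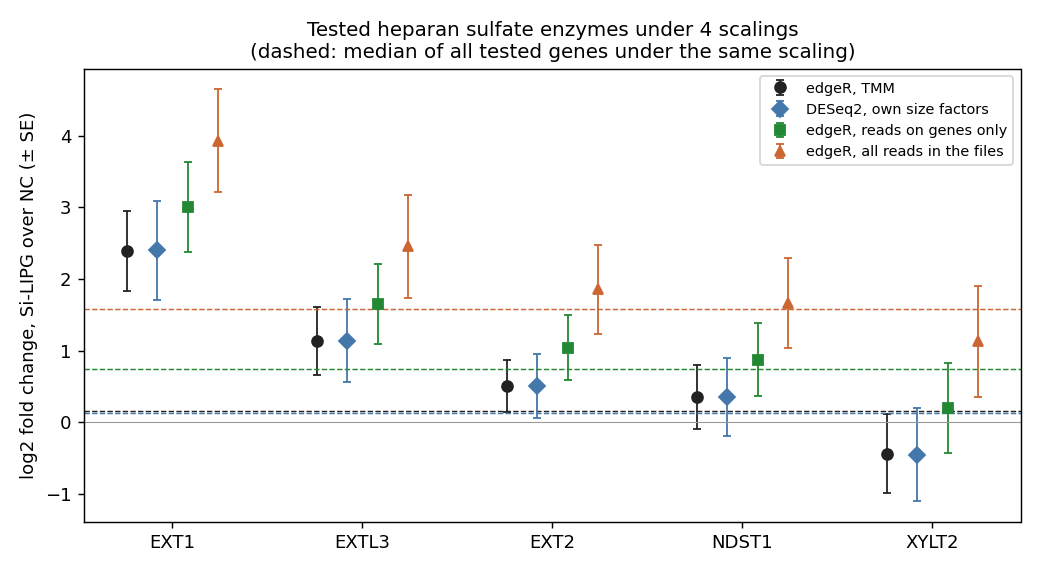
Log2 fold change of Si-LIPG over NC (vertical axis, with bars of 1 SE) of the 5 tested enzymes under 4 scalings, with the median of all tested genes under each scaling as a dashed line. EXT1 and EXTL3 lie above the median line of each scaling, and XYLT2 lies below each, while its sign turns from -0.44 with TMM to 1.13 with all reads.

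The enzymes below the filter were fitted with no filter on low counts, where 6.7% of 14848 genes were called higher at the criterion and 4.2% had an adjusted p under 0.05 in either direction. GLCE then had a log2 fold change of 3.81 (SE 1.21, edgeR's quasi-likelihood test, adjusted p = 0.0403), a value that depends on the prior count because of the 2 reads in NC. DESeq2, the tool of the study, gave GLCE a log2 fold change of 3.77 (adjusted p = 0.0694) and EXT1 2.40 (adjusted p = 0.0111). EXTL2 had a log2 fold change of -1.09 (edgeR with no filter, adjusted p = 0.723) and HS6ST1 one of 0.66 (edgeR with no filter, adjusted p = 0.875). Per read on genes, EXTL2 gave a ratio of 0.923 (exact 95% interval 0.432 to 2.03) and HS6ST1 a ratio of 2.27 (0.814 to 7.83) from the summed counts. A change of EXTL2 or HS6ST1 was not detectable at this depth.

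Ratios of 2 enzymes within a library do not depend on how libraries are scaled, and 4 such ratios were computed, chosen after the values had been seen. The ratio of EXT1 to EXT2 in FPKM was 0.252, 0.0840 and 0.0945 in NC and 0.312, 0.571 and 0.455 in Si-LIPG libraries (0.144 ± 0.0941 and 0.446 ± 0.130, SD, n = 3). EXT1 thus had fewer reads per kilobase than EXT2 in all 6 libraries, and the ratio was higher in each Si-LIPG library (exact permutation test, two-sided, p = 0.1, which is the minimum for 3 against 3, and 0.4 after Benjamini-Hochberg adjustment over the 4 ratios). The ratio of EXTL3 to EXT2 was 0.237, 0.455 and 0.222 in NC and 0.534, 0.429 and 0.492 in Si-LIPG libraries (exact permutation test, p = 0.2, adjusted 0.4). The ratio of NDST1 to EXT2 was 0.545 ± 0.207 and 0.464 ± 0.113 (SD, n = 3, exact permutation test, p = 0.7). XYLT2 over XYLT1 was 1.03, 1.20 and 2.39 in NC and 0.997, 6.11 and 2.27 in Si-LIPG libraries (exact permutation test, p = 0.7). The last 3 ratios overlapped between the groups.

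**Figure D3:**
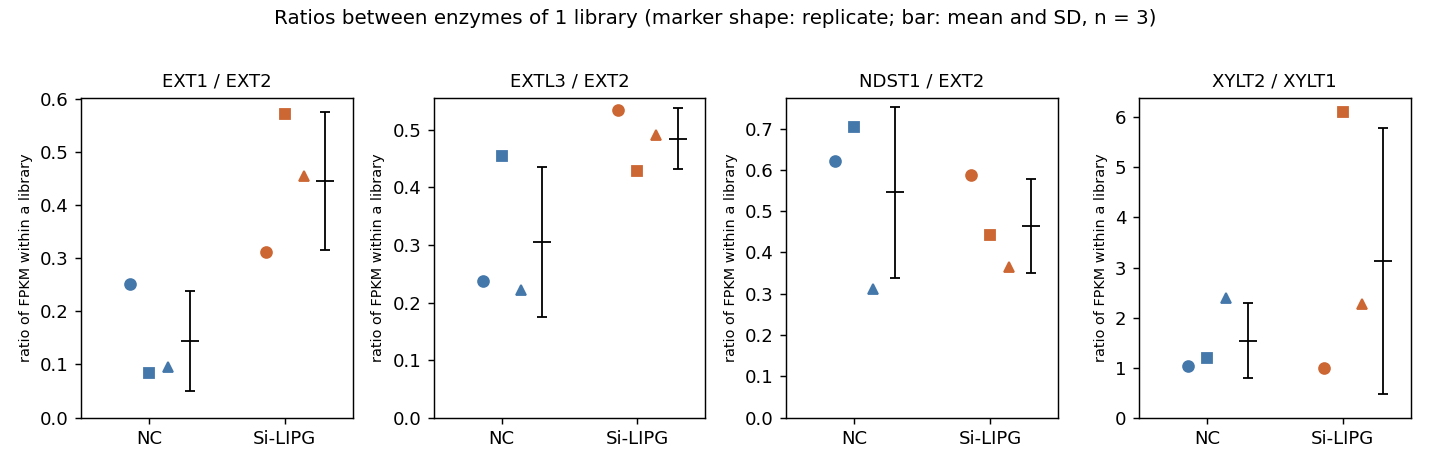
Ratios of FPKM between pairs of enzymes within a library (vertical axis, linear, starting at 0), with points for the 3 libraries of each group and bars for the mean and SD (n = 3). The ratio of EXT1 to EXT2 is at most 0.252 in NC and at least 0.312 in Si-LIPG libraries, and the other ratios overlap.

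Across the 6 libraries, EXT2 and EXTL3 varied most alike among the tested enzymes (Pearson r = 0.882 of TMM-scaled log2 CPM), and NDST1 and EXT1 were also most like EXTL3 (r = 0.780 and 0.645). XYLT2 was like none of the others, its highest r being -0.292 with EXT1. These values describe 6 libraries that share the group difference and the depth difference. Over all tested genes, EXT2 was most like MTCH2 and ZFR (r = 0.997 each) and FEM1B (r = 0.995), but 593 genes had an r over 0.9 with it.

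A further 34 tested genes came from lists of linker synthesis, precursor supply, editing and turnover, core proteins, chondroitin and dermatan sulfate synthesis and lipase partners. Of the 34, 8 met the criterion with TMM scaling, 4 higher and 4 lower, and 1 had an adjusted p under 0.05. Among all 6574 tested genes, 20.7% met the criterion in either direction, 7.83% met it as higher, and 6.51% had an adjusted p under 0.05. The direction of the calls among the 34 depended on the scaling, with 12 higher and 2 lower for library sizes alone and 21 higher and 0 lower for all reads. Over all 6574 tested genes, 1588 were called higher and 395 lower for library sizes alone, and 3030 higher and 2 lower for all reads. The median log2 fold change of the 34 was 0.32 with TMM scaling, beside 0.51 for the 5 enzymes and 0.16 for all tested genes. In chain start and polymerization, 2 of 3 tested genes met the criterion, EXT1 and EXTL3. In linker synthesis 0 of 4 did, with log2 fold changes from -1.35 for XYLT1 (edgeR, adjusted p = 0.265) to 1.87. None of the 7 found O-sulfation genes passed the filter on low counts. With the percentage of reads on genes as a covariate, 0 of the 34 met the criterion, beside 134 of all 6574 tested genes.

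Core proteins carry the chains, and 3 of 9 tested met the criterion. SDC4 and TGFBR3, the 2 called higher, had under 10 counts in NC library 1 and passed the filter on low counts only through Si-LIPG libraries, where they are high. Their calls are therefore a description only, and neither was tested with at least 10 counts asked of every library. SDC4, a transmembrane syndecan, had 4, 32 and 17 counts in NC and 52, 148 and 178 counts in Si-LIPG libraries, with a log2 fold change of 1.61 (SE 0.49, edgeR's quasi-likelihood test, adjusted p = 0.0620). TGFBR3, betaglycan, had 2, 6 and 23 counts in NC and 28, 77 and 78 in Si-LIPG libraries, and its log2 fold change of 1.40 (edgeR, adjusted p = 0.184) missed the criterion without NC library 1 (1.06), NC library 2 (1.10), Si-LIPG library 2 (1.22) or Si-LIPG library 3 (1.32). GPC2, a glypican anchored in the membrane by a lipid, was called lower with TMM scaling. It had 76, 75 and 74 counts in NC and 39, 74 and 49 in Si-LIPG libraries, a log2 fold change of -1.81 (SE 0.39, edgeR's quasi-likelihood test, adjusted p = 0.0395) that was -0.22 on the scale of all reads. The adjusted p of GPC2 from edgeR was 0.0800 without NC library 1, 0.0594 without NC library 2, 0.240 without Si-LIPG library 2 and 0.253 without Si-LIPG library 3. In each of these fits, 0 of all tested genes had an adjusted p under 0.05.

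In precursor supply, 1 of 7 tested genes met the criterion. SLC35B2, which carries the sulfate donor into the Golgi, stood at 36770, 16530 and 17150 TMM-scaled CPM in NC and at 11900, 7050 and 5665 in Si-LIPG libraries. Its log2 fold change was -1.52 (SE 0.45, edgeR's quasi-likelihood test, adjusted p = 0.0578), and -0.0072 when scaled to all reads. In RefSeq's ARS1.2 goat assembly each of the 4 genes called lower has another gene within 1 kb, so that some of their reads may belong to a neighbour. These are NFKBIE for SLC35B2, GAL3ST4 for GPC2, NCOA3 and LOC106502789 for SULF2, and CARD14 and SLC26A11 for SGSH. The genes called higher, SDC4, TGFBR3, CHSY1 and DSEL, have none. The part of neighbours in these calls was not tested. In editing and turnover, 2 of 7 tested genes met the criterion. SULF2, an extracellular enzyme that removes 6-O-sulfate, had a log2 fold change of -0.79 (edgeR, adjusted p = 0.133), which was 0.64 when scaled to all reads, and it missed the criterion without NC library 2 (-0.67), Si-LIPG library 2 (-0.80) or Si-LIPG library 3 (-0.75). SGSH, a lysosomal sulfatase of heparan sulfate breakdown, had 20, 27 and 7 counts in NC and 9, 14 and 12 in Si-LIPG libraries, which overlapped, and a log2 fold change of -1.98 (edgeR, adjusted p = 0.1). SGSH missed the criterion without NC library 1 (-1.56), with library sizes alone (-1.32) and on the scale of all reads (-0.39). It also missed the criterion with limma on log2(FPKM + 1) (-1.03) and on log2(FPKM + 0.1) (-1.10). SGSH was not tested with at least 10 counts asked of every library.

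Chondroitin and dermatan sulfate grow on the same linker as heparan sulfate. Of 7 tested genes of their synthesis, 2 met the criterion, both higher, and the median log2 fold change was 0.75. CHSY1, a polymerase of the chondroitin chain, had 0, 12 and 13 counts in NC and 28, 66 and 74 in Si-LIPG libraries (log2 fold change 1.595, edgeR, adjusted p = 0.178), and missed the criterion without Si-LIPG library 2 (1.48) or Si-LIPG library 3 (1.48). DSEL, an epimerase of dermatan sulfate, had 6, 19 and 10 counts in NC and 32, 96 and 124 in Si-LIPG libraries (log2 fold change 1.55, SE 0.50, edgeR, adjusted p = 0.0766). Neither passed the adjusted threshold. CHSY1 and DSEL had under 10 counts in NC library 1 and passed the filter on low counts only through Si-LIPG libraries, where they are high. Their calls are therefore a description only, and neither was tested with at least 10 counts asked of every library. Of the lipases and their partners, 1 of 9 found genes was tested and 0 met the criterion, with LPL at 0 in all 6 libraries.

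**Figure D4:**
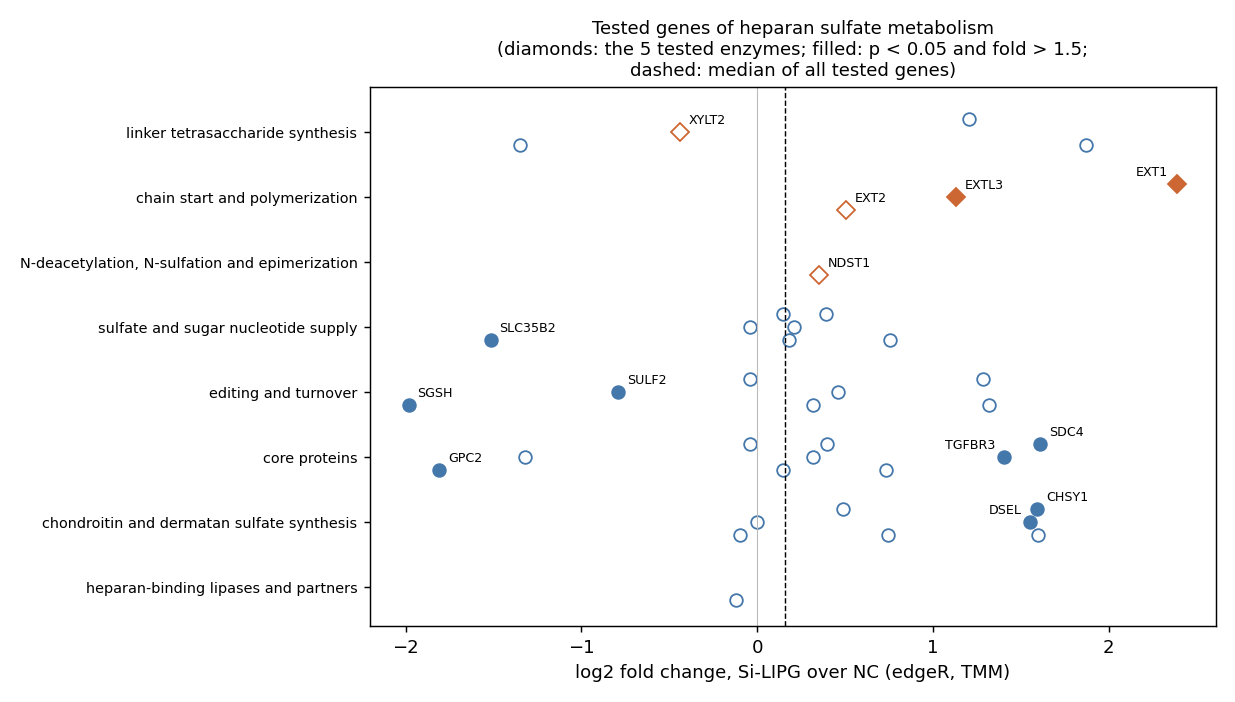
Log2 fold change of Si-LIPG over NC (horizontal axis, edgeR with TMM scaling) of the tested genes in each list of heparan sulfate metabolism, with diamonds for the 5 tested enzymes, circles for the other 34 genes, filled marks for genes at the criterion and a dashed line for the median of all tested genes, 0.16. EXT1 lies farthest to the right at 2.39 and SGSH farthest to the left at -1.98.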

How the data were processed

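The 3 NC and 3 Si-LIPG libraries of poly(A) RNA were grouped by their titles. The authors deposited counts of reads on 27271 Ensembl genes per library, with 5 further entries for reads on no gene, and FPKM values of the same genes with a name for 18989 of them. The submitters' processing notes name fastp, HISAT2, SAMtools and HTSeq. Their versions, the genome build and the strand setting are not given in the sources used here. The entries that name no gene held a median of 92.9% of reads as counted on no feature and were used in neither library sizes nor tests. FPKM and counts gave 1 length per gene within 1%, so both come from the same counts.

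Enzymes were matched by gene name. Counts were tested in R 4.3.3 with edgeR 4.0.16 (filterByExpr, TMM, quasi-likelihood test), with Benjamini-Hochberg adjustment over the 6574 tested genes and SE taken as the absolute log2 fold change over the square root of F. The criterion, p under 0.05 and fold change over 1.5, is the study's. Log2 CPM used a prior count of 2. Exact intervals were for counts at the 95% level. The enzymes, gene lists and tests were chosen with earlier results of these data known. All enzymes were named, together with listed genes at the criterion, the enzymes' closest family genes, LIPG and the genes most alike by correlation. Replicate libraries differed by more than sampling noise (4.21 to 12.5 as chi-square over degrees of freedom). Alternatives were DESeq2 1.42.0, other scalings and filters, a replicate block, the percentage of reads on genes as a covariate, other fold thresholds, limma 3.58.1 on log2(FPKM + 1) and log2(FPKM + 0.1), and leaving out each library. Halving all counts was added after the data had been seen. The procedures were tested on simulated data. Sequences were not analysed here.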

Additional observations from a re-analysis of the deposited data

How the results depend on the processing

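In every alternative that tested EXT1 its log2 fold change was above 0, and its call depended on the fit. Instead of 2 enzymes at the criterion there were 4 with scaling to all reads in the files, 0 with at least 10 counts in every sample (3 enzymes tested, without EXT1 and EXTL3), 0 with the percentage of reads on genes as covariate, and 1 to 3 when each library was left out. Instead of 1 enzyme with an adjusted p under 0.05 there were 2 with no filter on low counts and 0 with at least 10 counts in every sample. There were 0 with the covariate, 0 with limma on log2(FPKM + 1), 0 with limma on log2(FPKM + 0.1), and 0 to 1 when each library was left out. Over all tested genes, 0 reached that threshold with the covariate or either limma fit. Likewise 0 did without NC library 1, NC library 2, Si-LIPG library 2 or Si-LIPG library 3. With at least 10 counts in every sample, 714 of 2757 genes reached it, and 428 of 6574 did with TMM scaling. Instead of 8 other pathway genes at the criterion there were 14 with library sizes alone (12 higher) and 21 with scaling to all reads (all higher). There were 10 with upper quartile scaling, 10 with no filter on low counts and 10 with all counts halved. There were 4 with at least 10 counts in every sample, 0 with the covariate, and 5 to 10 when each library was left out. Limma gave 14 on log2(FPKM + 1) and 12 on log2(FPKM + 0.1). Over all 6574 tested genes, 1983 met the criterion with library sizes alone, and 1912 and 1671 with these limma fits. XYLT2 turned to 0.20 with library sizes alone and to 1.13 with all reads. The median of the tested enzymes minus that of all tested genes was 0.35, 0.83 with the covariate, and 0.16 to 0.53 when each library was left out. The causes were not tested.

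Whether the replicate numbers of the titles pair the libraries was not settled. The correlation of deviations from the group means was 0.210, 0.0639 and 0.105 for the 3 equal numbers. For unequal numbers it ran from -0.154 to 0.0910. With the replicate block, 2 enzymes met the criterion, 1 had an adjusted p under 0.05, and 10 other pathway genes met the criterion. Over all 6574 tested genes, 1550 met the criterion with the block and 1361 without it. An adjusted p under 0.05 was reached by 925 genes with the block and 428 without it (edgeR). Depth limits EXTL2, GLCE and HS6ST1, whose counts were under the filter.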

Other observations

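Counts were often even numbers. Among genes with 1 to 20 counts, 63.4% to 67.6% had an even count, and in NC library 1 there were 830 genes with 1 count and 1368 with 2 counts. Of the 42 values of the 8 enzymes above 0, 31 were even (73.8%). With all counts halved and rounded up, EXT1 had a log2 fold change of 2.43 (edgeR, adjusted p = 0.0189) and EXTL3 one of 1.06 (edgeR, adjusted p = 0.173). How reads were paired in the counting was not tested.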
